A study of Mus musculus with 6 samples.

Results

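Cilia are built and serviced by trains of intraflagellar transport (IFT) proteins, and the 38 mouse genes followed here encode the parts of this system that primary and motile cilia share. They are subunits of the IFT-A and IFT-B complexes, of the kinesin and dynein motors and of the BBSome with its chaperonin-like assembly proteins, and the adaptor and small GTPase genes Tulp3, Arl6 and Arl13b. A gene was read on the array by the probe sets that the annotation gives to that gene alone, and of these the probe set with the highest mean over all arrays was taken, here called the brightest. In this way 36 of the 38 genes were found, through 63 probe sets, among 14184 genes tested in all, and no probe set carried the name Arl6 or Arl13b in the annotation used here. Members were listed by function, but with earlier results of these data known. Of the measured values only the mean over all arrays entered the rule, through the choice of probe set.

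The arrays compared the vestibular with the cochlear sensory epithelium of wild type C3H mice at postnatal day 2, with 3 arrays each. The vestibule group pooled the maculae of utricle and saccule with the anterior and lateral cristae. The cochlea group held the cochlear epithelium alone. Both were dissected together with underlying mesenchyme and attached neurons, and each pool came from several inner ears. Every array therefore read a mixture of cells, in which fewer cells of a type and less RNA per cell cannot be told apart. The study's methods tell of 3 pools a tissue and of 3 biological experiments with 3 replicates each, while 3 arrays a tissue were read here, and neither the methods nor the labels tie an array to a pool. The p-values thus rest on array-to-array spread, which may be technical. Values are the log2 expression values of the authors (robust multiarray average, RMA), given to 1 decimal. Differences are vestibule minus cochlea on this log2 scale, so a positive one means higher in the vestibule. A gene was called at a Benjamini-Hochberg adjusted p under 0.1 in limma together with a fold of at least 1.3, the thresholds of the study.

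Large IFT-B trains carry cargo to the tip of the cilium behind kinesin-2, and IFT-A with dynein-2 brings them back. The BBSome is a coat-like complex that rides on these trains and moves membrane proteins out of the cilium, and its loss causes Bardet-Biedl syndrome in humans. In the inner ear a true cilium, the kinocilium, stands beside the stereocilia of each young hair cell, where it takes part in orienting the hair bundle. Vestibular hair cells keep it, whereas cochlear hair cells of the mouse lose it as they mature. Supporting cells and many mesenchymal cells carry a primary cilium.

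Transport genes read higher in the vestibule or showed no call, and none was called higher in the cochlea. Of the 36 members 13 (36.1%) were called higher in the vestibule, against 15.1% of all 14184 genes tested. The count of 0 in the cochlear direction in limma, which was also 0 at an unadjusted p under 0.05, stood against 7.97% of all genes. At an unadjusted p under 0.05, 16 members were higher in the vestibule. The differences were small. The median over the members was 0.27, against 0.03 over all genes tested, and the largest was 0.93. For 17 members (47.2%) all vestibular arrays lay above all cochlear arrays, and for 0 the order was the opposite, while 32.3% of all genes had arrays that did not overlap in either direction. The mean level of the members was 8.75 to 8.84 on the vestibular arrays and 8.42 to 8.57 on the cochlear arrays. Over all genes it was 8.02 to 8.03 in the vestibule and 7.92 to 7.97 in the cochlea.

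**Figure D1:**
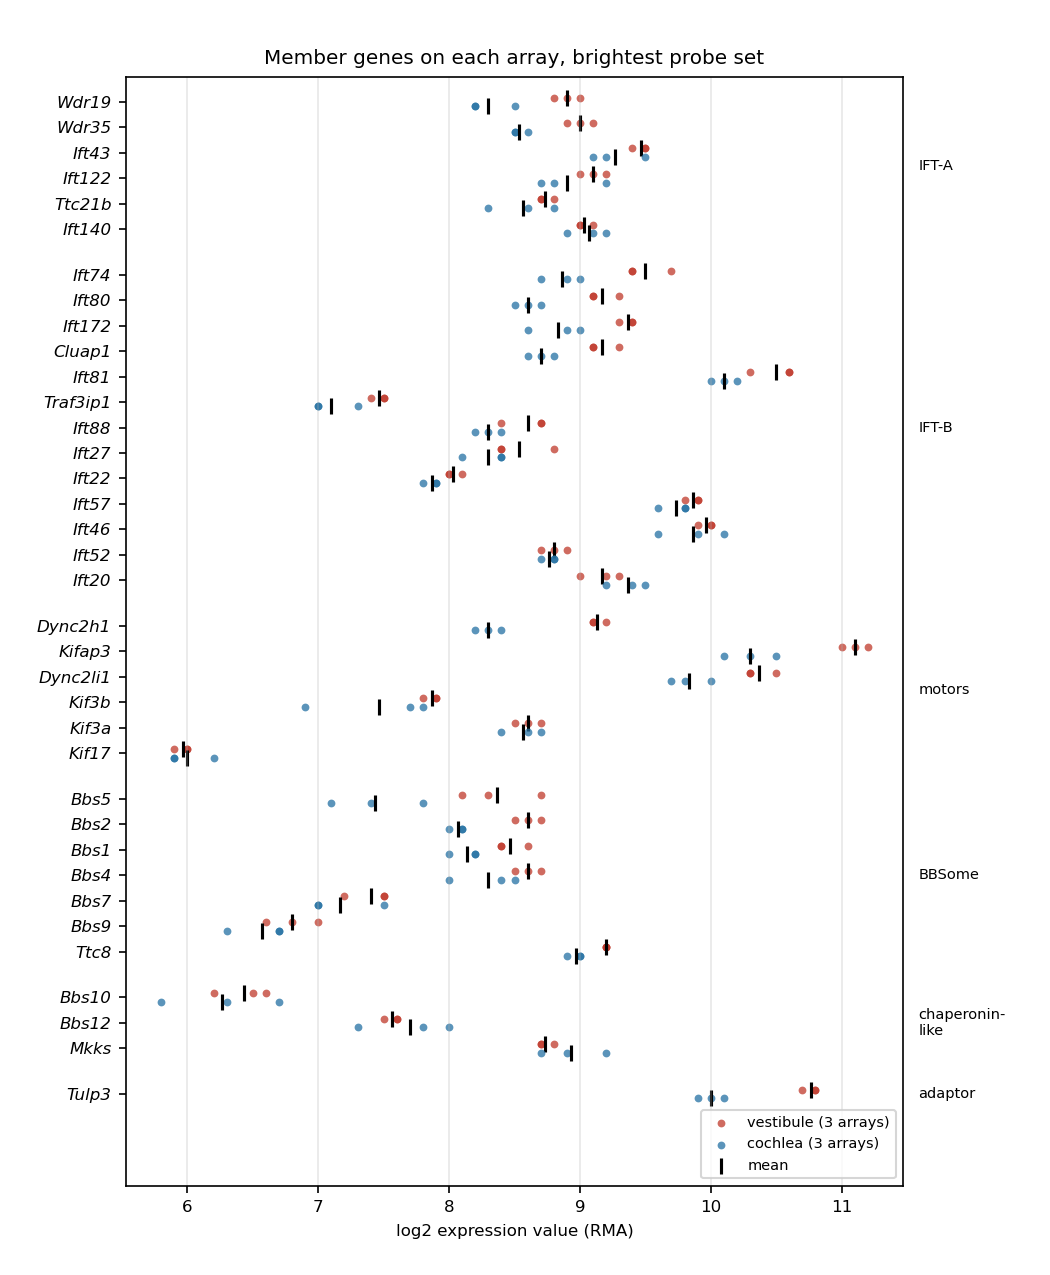
Log2 expression value of each of the 36 members on every array, with 3 points for the vestibule above 3 for the cochlea in each row and black bars at the means. Rows are grouped by complex, and the points of the tissues separate for 17 members, all with the vestibule to the right.

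The sequences shown next are upstream regions of members, because RFX transcription factors are known to bind a paired element, the X-box, near the start of IFT and BBSome genes in worms, flies and mammals. RefSeq (build GRCm38.p6) gave a window of 300 bases, 250 before and 50 after the start, for 34 of the 38 genes. Dync2li1, Ift80, Ift81 and Ift122 had no entry in the table. The letters searched were a single X-box arm, GTTGCC, on both strands, and the loose pair made of GTTNCC followed after 0 to 3 bases by GGNAAC, which reads the same way on both strands and may hold the single arm. The single arm lay in 14 of 34 member windows (41.2%), against 2225 of 17486 windows of protein-coding genes (12.7%). The loose pair lay in 2 member windows (5.88%), against 133 of the protein-coding ones (0.761%). Median GC content was 59.0% in the member windows and 56.3% in the protein-coding ones. Since membership follows known ciliary function, such sites are a description of the genes and not a result of the arrays.

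Bbs5 and Dync2h1, the members with the largest differences between the tissues, both hold the single arm shortly after the start, and their windows are given whole, 5′ to 3′ along the gene, with the arm in capitals. Bbs5 lies on the plus strand at chr2:69646921-69647220 and Dync2h1 on the minus strand at chr9:7177009-7177308.
Bbs5: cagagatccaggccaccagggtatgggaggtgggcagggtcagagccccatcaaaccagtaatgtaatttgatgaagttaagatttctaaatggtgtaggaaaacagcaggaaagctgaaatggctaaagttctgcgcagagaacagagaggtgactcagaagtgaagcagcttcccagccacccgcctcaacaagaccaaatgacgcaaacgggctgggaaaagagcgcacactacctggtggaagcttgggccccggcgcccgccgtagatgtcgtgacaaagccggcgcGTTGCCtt
Dync2h1: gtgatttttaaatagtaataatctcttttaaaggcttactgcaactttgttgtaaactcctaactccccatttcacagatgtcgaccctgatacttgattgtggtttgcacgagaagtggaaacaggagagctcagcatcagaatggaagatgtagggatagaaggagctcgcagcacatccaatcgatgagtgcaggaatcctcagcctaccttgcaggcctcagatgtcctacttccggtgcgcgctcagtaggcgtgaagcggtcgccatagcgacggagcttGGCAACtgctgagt
In Bbs5 the arm runs in the direction of the gene, and in Dync2h1 it runs against it, as the capitals show.

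Windows of 40 bases show the pair and the arm in other members. These 4 were picked for their motif after the search: Ift57 and Bbs7 hold the only loose pairs, and Ift172 and Wdr35 are the remaining called genes with a single arm. Ift57 is at chr16:49699220-49699259 (plus strand), Bbs7 at chr3:36613484-36613523 (minus strand), Ift172 at chr5:31291092-31291131 (minus strand) and Wdr35 at chr12:8974011-8974050 (plus strand).
Ift57: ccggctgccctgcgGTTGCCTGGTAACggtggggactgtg
Bbs7: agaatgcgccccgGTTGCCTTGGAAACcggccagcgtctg
Ift172: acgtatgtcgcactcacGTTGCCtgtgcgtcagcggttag
Wdr35: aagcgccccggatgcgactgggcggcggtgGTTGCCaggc
Capitals mark the pair in Ift57 and Bbs7 and the single arm in Ift172 and Wdr35. Of the 15 matches over all members 14 began between 121 bases before and 42 bases after the start, and that of Arl13b began 181 bases before it.

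Beside the array results, the arm lay in 4 of 10 windows of genes called higher in the vestibule and in 9 of 22 windows of measured genes with no call. Ift57 and Bbs7, with the pair, had differences of 0.13 and 0.23, neither called. The windows of 22 genes of the motile axoneme held the arm in 9 cases (40.9%) and the pair in 0. Tulp3 and Kifap3, with differences among the 4 largest, had no match to these letters in their windows.

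**Figure D2:**
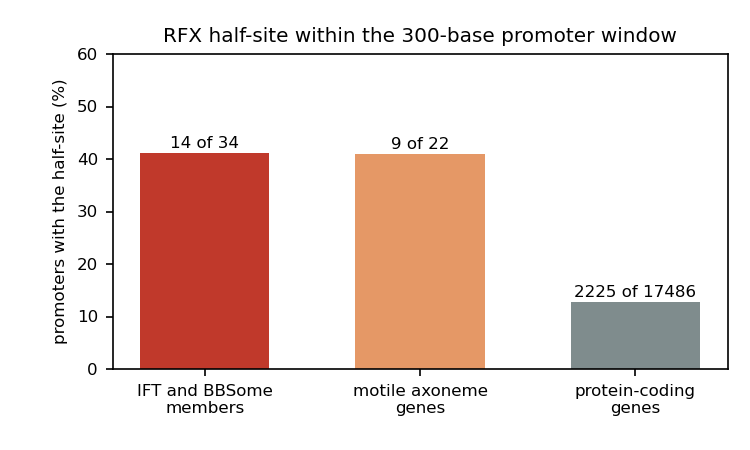
Percent of 300-base RefSeq promoter windows that hold the single X-box arm on either strand, for 34 members, 22 motile axoneme genes and 17486 protein-coding genes. The bar of the members stands at 41.2% and that of the protein-coding genes at 12.7%.

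IFT-A takes part in the return of trains and in the entry of membrane cargo. It had 2 of 6 subunit genes called, Wdr19 and Wdr35. Wdr19, which encodes the core subunit IFT144, read 8.9, 8.8 and 9.0 on the vestibular arrays, against 8.2, 8.5 and 8.2 on the cochlear ones. The groups did not overlap, and the difference of 0.60 (standard error 0.13, limma adjusted p = 0.0126) is a fold of 1.52. Wdr35, which encodes IFT121, read 9.1, 8.9 and 9.0 in the vestibule and 8.6, 8.5 and 8.5 in the cochlea. Its difference was 0.47 (standard error 0.11, limma adjusted p = 0.0210), again without overlap, and fell short of the minimum fold after a second quantile normalization (0.37) and when its probe sets were averaged (0.32). The other IFT-A genes had intervals that included 0: Ift43 and Ift122 stood at 0.20 each, Ttc21b, whose product IFT139 binds the periphery of the complex, at 0.17, and Ift140, a core subunit gene, at -0.03 (95% confidence interval -0.31 to 0.24). A dimmer probe set of Wdr19 was called as well, at 0.80, and one of Ift122 stood at 0.57 (limma adjusted p = 0.0751) although the brightest did not pass. The second probe set of Wdr35 read near 5 and had a difference of 0.17, not called.

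IFT-B is the larger complex, and 5 of the 13 members from it were called higher in the vestibule. Ift74 and Ift81 encode the coiled-coil pair that binds tubulin for delivery to the growing tip. Ift74 read 9.4, 9.4 and 9.7 in the vestibule and 8.7, 9.0 and 8.9 in the cochlea, 0.63 apart (standard error 0.14, limma adjusted p = 0.0130). Ift81 read 10.6, 10.3 and 10.6 in the vestibule, against 10.2, 10.1 and 10.0 in the cochlea. Its lowest vestibular array lay just 0.1 above its highest cochlear one. The difference of Ift81 was 0.40 (standard error 0.13, limma adjusted p = 0.0707), and this call was lost without any 1 of 5 arrays (0.35 without vestibule replicate 1 or 3 or cochlea replicate 3, 0.45 without cochlea replicate 1 and 0.40 without cochlea replicate 2). A further probe set of Ift81 nonetheless gave 0.43 with a call of its own.

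Ift80, Ift172 and Cluap1 belong to the peripheral part of IFT-B, which contacts the kinesin motor and IFT-A. Ift80, mutated in a human skeletal ciliopathy, read 9.1, 9.1 and 9.3 in the vestibule and 8.5, 8.7 and 8.6 in the cochlea, 0.57 apart (standard error 0.12, limma adjusted p = 0.0111). Ift172, the largest subunit, read 9.4, 9.3 and 9.4 in the vestibule and 8.9, 9.0 and 8.6 in the cochlea, and its difference was 0.53 (standard error 0.13). Cluap1, which encodes IFT38, read 9.1, 9.1 and 9.3 in the vestibule and 8.6, 8.7 and 8.8 in the cochlea, with a difference of 0.47 (standard error 0.12). All 3 were free of overlap between the tissues. The calls of Ift172 (limma adjusted p = 0.0252) and Cluap1 (limma adjusted p = 0.0274) were lost without vestibule replicate 3, at 0.52 and 0.40, and that of Ift172 also without vestibule replicate 1, at 0.52. A second probe set of Ift80 stood at 0.73 and was called.

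The remaining 8 IFT-B members were not called. Traf3ip1, which encodes the microtubule-binding subunit IFT54, passed the adjusted p (limma adjusted p = 0.0848) but at 0.37 lay just under the minimum fold, and the arrays of the tissues were 0.1 apart. Ift88, whose mouse mutants lack normal cilia, stood at 0.30 (95% confidence interval 0.01 to 0.59). Ift27 and Ift22, small GTPase genes of the complex, stood at 0.23 and 0.17, Ift57 at 0.13, Ift46 at 0.10 and Ift52, a core scaffold gene, at 0.03 (95% confidence interval -0.22 to 0.29). Ift20, which encodes the subunit that also works at the Golgi apparatus, was the only IFT-B member below 0. It read 9.2, 9.0 and 9.3 in the vestibule, against 9.4, 9.2 and 9.5 in the cochlea, with a difference of -0.20 (95% confidence interval -0.50 to 0.10) and overlapping arrays. The 3 probe sets of Ift27 lay between 0.03 and 0.23.

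Of the 6 motor members 3 were called, among them both members from the retrograde dynein. Dync2h1, the heavy chain of dynein-2, read 9.1, 9.1 and 9.2 in the vestibule and 8.3, 8.4 and 8.2 in the cochlea, with a gap of 0.7 between the groups, the widest of all members. Its difference of 0.83 (standard error 0.11, limma adjusted p = 0.00102) is a fold of 1.78. Dync2li1, the light intermediate chain of the same motor, read 10.3, 10.3 and 10.5 in the vestibule and 9.8, 10.0 and 9.7 in the cochlea, 0.53 apart (standard error 0.13, limma adjusted p = 0.0206). Each was read by 1 probe set. Of the dynein-2 genes outside the members, Wdr34 and Wdr60, which encode intermediate chains, stood at 0.33 and 0.30, neither called. Of the light chain genes Tctex1d2 and Dynlrb1 stood at 0.20 and 0.13 without a call, while Dynlrb2 was called higher in the vestibule at 1.77.

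The anterograde kinesin-2 genes among the members gave an uneven picture. Kifap3, which encodes the accessory subunit KAP3, read 11.2, 11 and 11.1 in the vestibule and 10.3, 10.5 and 10.1 in the cochlea, 0.80 apart (standard error 0.13, limma adjusted p = 0.00366). Its other probe set read 7.63 in the vestibule and 7.77 in the cochlea, a difference of -0.13 (limma adjusted p = 0.769), so the probe sets of Kifap3 disagreed, and with their mean the difference was 0.33 and the call was lost. The motor subunit gene Kif3a stood at 0.03 (95% confidence interval -0.25 to 0.32), and its 4 probe sets lay between 0.03 and 0.17 with none called. Kif3b, the partner of Kif3a, read 7.8, 7.9 and 7.9 in the vestibule and 7.7, 7.8 and 6.9 in the cochlea. Its difference of 0.40 was not called (limma adjusted p = 0.280). There cochlea replicate 3 lay far below the other arrays, and the difference was 0.12 without that array. Whether Kifap3 differed from Kif3a in its shift was not tested. Kif17, the homodimeric kinesin-2, read near 6 in both tissues with a difference of -0.03, while a dimmer probe set of it was called at 0.43.

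**Figure D3:**
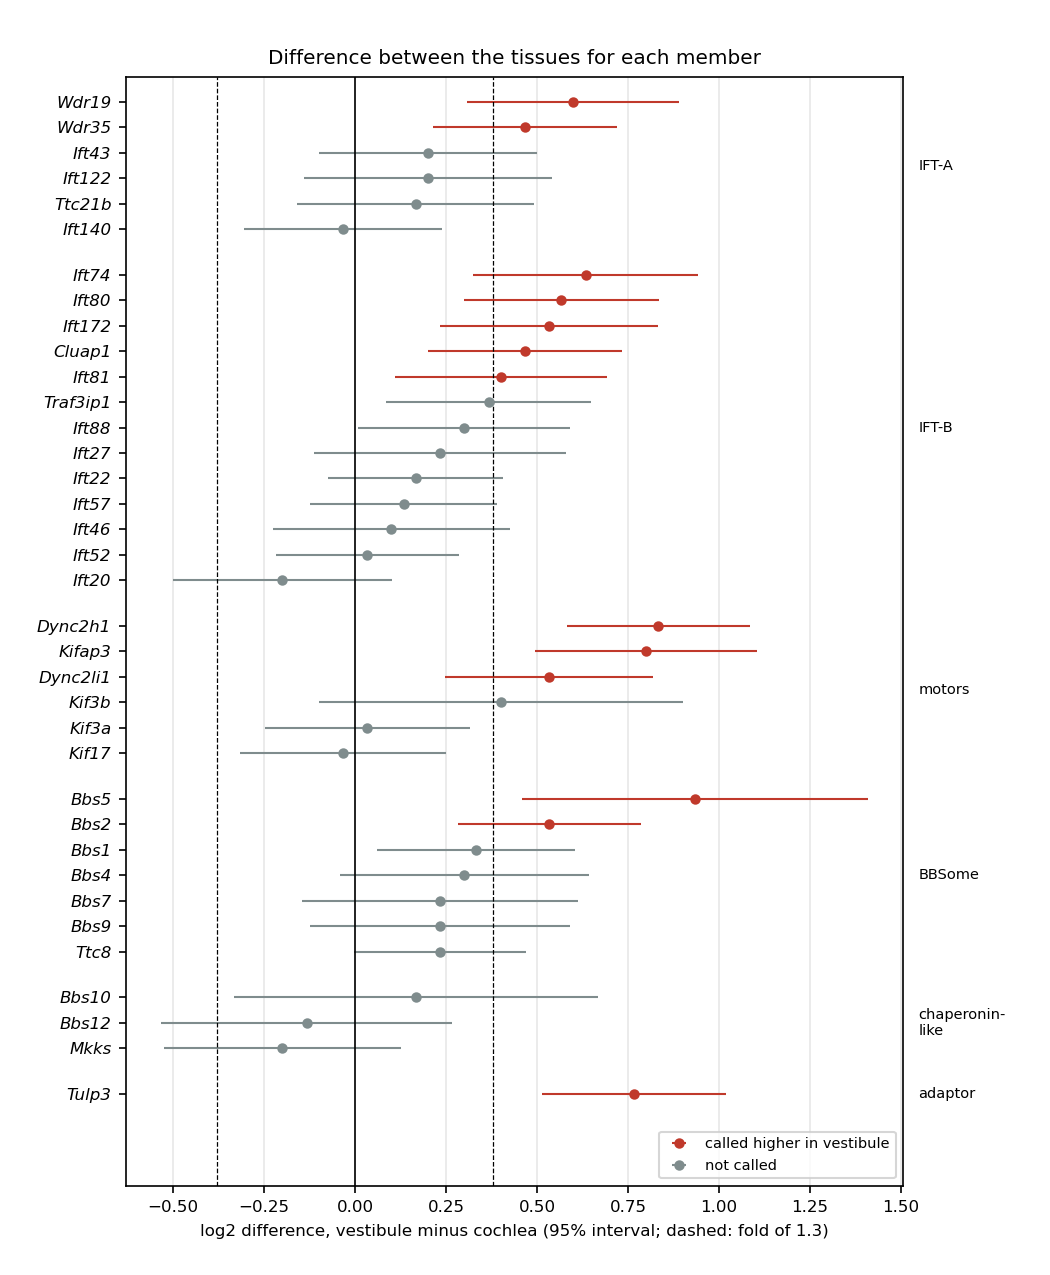
Log2 difference of each member, vestibule minus cochlea, with its 95% confidence interval from limma, grouped by complex, and dashed lines at a fold of 1.3 either way. The called genes run from 0.40 for Ift81 to 0.93 for Bbs5, and the 5 members below 0 all have intervals that reach past it.

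The 7 BBSome members all had a difference above 0, and 2 were called, while Bbip1, a further BBSome subunit gene outside the members, stood at 0.00. Bbs5, whose product binds phosphoinositides, had the largest difference of all members at 0.93 (standard error 0.21, limma adjusted p = 0.0160), a fold of 1.91. It read 8.3, 8.1 and 8.7 in the vestibule and 7.4, 7.8 and 7.1 in the cochlea, a wider spread than for the other called genes. With the replicate number as a block in the fit, the call of Bbs5 was lost (limma adjusted p = 0.145). Bbs2, a subunit of the BBSome core, read 8.6, 8.5 and 8.7 in the vestibule, against 8.0, 8.1 and 8.1 in the cochlea. Its difference was 0.53 (standard error 0.11, limma adjusted p = 0.0111).

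Bbs1, which contacts the GTPase ARL6, and Ttc8, also called BBS8, had arrays apart without a call. Bbs1 read 8.6, 8.4 and 8.4 in the vestibule and 8.0, 8.2 and 8.2 in the cochlea, with a difference of 0.33 (limma adjusted p = 0.103). Ttc8 read 9.2 on each vestibular array and 9.0, 9.0 and 8.9 on the cochlear ones, a difference of 0.23 (limma adjusted p = 0.181). Bbs4, Bbs7 and Bbs9 stood at 0.30, 0.23 and 0.23 with overlapping arrays, or in Bbs4 arrays that touched. In Bbs4 the brightest probe set carried the suffix _s_at, which marks probes shared among transcripts, as did those of Ift81, Ift122, Kif3b and Bbs10. Other, dimmer probe sets of it were called at 0.40 and 0.60.

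The chaperonin-like genes Bbs10, Bbs12 and Mkks, whose products help to assemble the BBSome, had 0 of 3 called. Their differences were 0.17 for Bbs10, -0.13 for Bbs12 and -0.20 for Mkks. Mkks read 8.7, 8.8 and 8.7 in the vestibule and 8.9, 9.2 and 8.7 in the cochlea, and both of its probe sets gave -0.20. The arrays of all 3 genes overlapped, most widely in Bbs10, with 6.2, 6.6 and 6.5 in the vestibule and 6.3, 5.8 and 6.7 in the cochlea. That the chaperonin-like genes differ from the BBSome genes in their shift was not tested.

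Tulp3 couples IFT-A to receptors bound for the ciliary membrane, among them regulators of Hedgehog signalling. It read 10.8, 10.8 and 10.7 in the vestibule and 9.9, 10.1 and 10.0 in the cochlea, with no overlap and a gap of 0.6. Its difference of 0.77 (standard error 0.11, limma adjusted p = 0.00160) is a fold of 1.70. The 2 other probe sets of Tulp3 read below 5 in both tissues and stood at 0.13 and -0.13, the dimmest of them below the filter on low values.

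Over the 17 genes with more than 1 probe set, 27 further probe sets could be set beside the brightest. Of these 20 passed the filter on low values, 7 were called towards the vestibule and 0 towards the cochlea, and 16 had a difference above 0. Calling a member from any of its probe sets, a choice made after the data were seen, took the count of called genes to 16, with Ift122, Kif17 and Bbs4 added. The share of all genes called under this rule was not computed. Neither the 7 further calls nor the 16 called genes were set beside a background, so whether they exceed it was not tested. Probe sets of a gene read the same RNA and are not replicates.

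Other genes of the same machinery or linked to it, outside the 38, were read in the same way. Of 16 genes so listed and tested, 7 were called towards the vestibule and 0 towards the cochlea, with a median of 0.32. A difference below 0 was read for 4 of them. Dynlrb2, a light chain gene of dynein that is rich in ciliated cells, stood at 1.77, Trim32, linked to Bardet-Biedl syndrome, at 1.27, the small GTPase gene Rabl2 at 0.80 and Ttc26, which encodes IFT56, at 0.77. Of the other IFT-B genes in this list Ttc30b and Ttc30a1 were called as well, at 0.50 and 0.40, and Hspb11, which encodes IFT25, stood at -0.13 with no call. Of 16 genes of the transition zone, the gate at the base of the cilium, Nphp4 and B9d2 were called higher in the vestibule at 0.43 each, 0 in the cochlea, and 14 did not pass (median 0.25). Of 15 genes listed under ciliary membrane trafficking 3 were called higher in the vestibule, and the median was 0.17. They were the guanine nucleotide exchange factor gene Rab3ip at 1.20, Unc119b, a carrier of lipid-modified cargo, at 0.73 and Tmem107 at 0.57. Tmem107, which encodes a transition zone protein, was not counted in the transition zone list.

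Basal body genes had a median difference of 0.00 over 15 genes. Cep41 and Ccp110 were called higher in the vestibule at 1.17 and 0.90, and Cep164, which encodes a distal appendage protein, was called higher in the cochlea at -0.63. The genes of the RFX family, a list not limited to factors known to act on ciliary genes, had 0 of 6 called in limma in either direction, with differences of -0.03 to 0.37. Rfx1 stood at 0.37 (limma adjusted p = 0.0848), under the minimum fold, and Rfx3 at 0.07.

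The motile axoneme list had larger differences. It holds structural genes of beating cilia and the factor gene Foxj1, and no genes of the transport trains. Of 24 tested 23 were called higher in the vestibule, the median was 2.05 and the range 0.30 to 3.33. The filter on mean level shaped this count in part. Rsph4a, Spag16, Tekt4 and Dnah5 had cochlear means of 3.73, 4.33, 4.60 and 4.60, under the lowest mean kept (4.68). These genes entered through their vestibular arrays, while Spag6 and Spag17, low in both tissues, did not enter. Cfap52 stood at 3.33, Cfap45 at 3.23, Drc1 at 3.10 and Rsph4a at 2.83. The mean level of this list was 7.79 to 7.94 on the vestibular arrays and 5.73 to 5.97 on the cochlear ones. No member reached 1.00, so the highest member lay below the median of the axoneme genes.

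**Figure D4:**
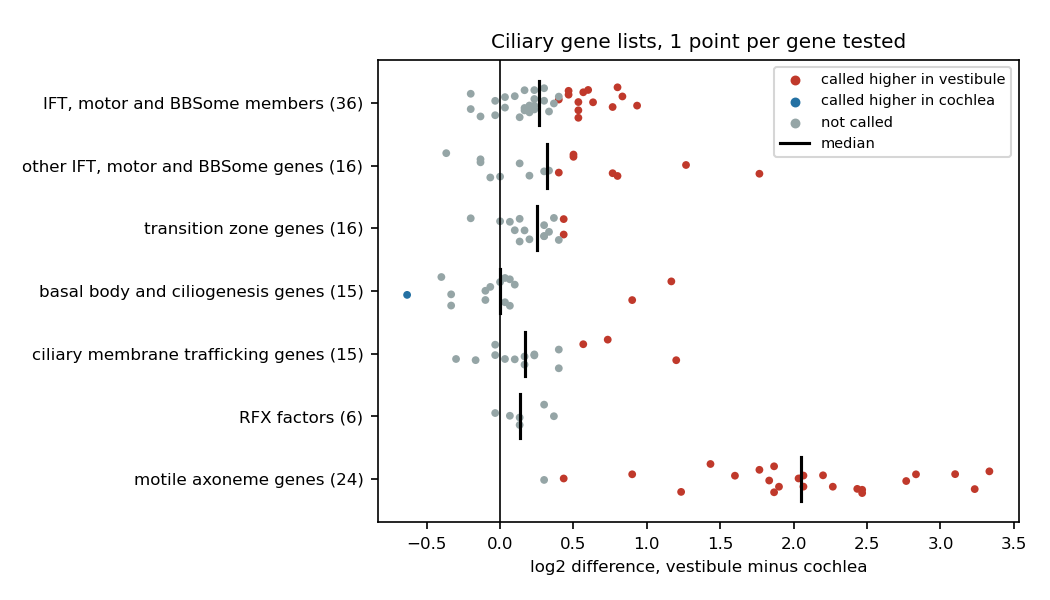
Log2 difference, vestibule minus cochlea, of every gene tested in 7 ciliary gene lists, 1 point a gene, coloured by the call, with a black bar at each median and the number of genes in brackets. The members centre on 0.27 and the motile axoneme genes on 2.05.

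Cell type markers moved between the tissues as well. Hair cell markers were higher in the vestibule for 7 of 11 genes, with the motor gene Myo7a at 1.47 and the factor gene Gfi1 at 3.10, and the mean level of the list was 8.60 to 8.74 in the vestibule and 7.42 to 7.59 in the cochlea. Supporting cell markers were mixed, with 2 of 10 called towards the vestibule, S100a1 at 1.17 and Slc1a3 at 0.73. Towards the cochlea 5 were called, with Fgfr3 at -3.57 the furthest from 0. The mean level of this list was 8.85 to 8.93 in the vestibule and 9.63 to 9.79 in the cochlea. Neuron markers were higher in the cochlea for 10 of 11 genes, at a mean level of 6.55 to 6.76 in the vestibule and 8.15 to 8.65 in the cochlea, with Stmn2 at -3.90. Of these Nefh had a vestibular mean of 4.43, under the lowest mean kept (4.68), and entered through its cochlear arrays. Prph and Tubb3 lay just above that limit in the vestibule, at 4.70 and 4.83.

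Macrophage markers were higher in the vestibule for 7 of 8 genes, with mean levels of 8.10 to 8.36 in the vestibule and 6.64 to 6.95 in the cochlea. Endothelial markers were higher there for 4 of 6 and lower for 1, with mean levels of 7.95 to 8.12 in the vestibule and 6.85 to 7.20 in the cochlea. Mesenchymal markers were higher in the vestibule for 5 of 9, at 11.1 to 11.3 in the vestibule and 10.5 to 10.9 in the cochlea, and Schwann cell markers for 3 of 6 with 1 lower, at 10.5 to 10.9 in the vestibule and 9.87 to 10.1 in the cochlea. The part of these cell types in the differences of the transport genes was not tested.

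The arrays of a tissue correlated at 0.993 in the vestibule and at 0.981 to 0.988 in the cochlea, and arrays of different tissues at 0.945 to 0.961. Residuals of the members around their tissue mean had an SD of 0.109 to 0.135 on the vestibular arrays and of 0.164 to 0.244 on the cochlear arrays.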

How the data were processed

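The authors amplified the RNA, hybridized it to Affymetrix mouse arrays and deposited RMA log2 expression values, quantile normalized and given to 1 decimal, which were used as they stand. Leaving aside 64 control probe sets, the 29636 brightest were tested (lowest mean 4.68), as many as the study kept by Present calls. The annotation gives 34945 probe sets 1 gene, 932 several (not used) and 9160 none. Symbols were updated through Entrez numbers. Tissues were compared two-sided in limma (version 3.58.1, R 4.3.3), with Benjamini-Hochberg adjustment. The study's text names no test. The fit was first tested on simulated data. With 3 arrays a side, exact permutation cannot reach p below 0.1, and the number of arrays limits the precision.

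The members and all gene lists were chosen with earlier results of these data known. Named were every member and up to 4 called genes of each further ciliary list, by size. Rfx1, Rfx3, further genes of IFT-B, dynein-2 and the BBSome, and the cell type examples were picked after seeing their values. Settings tried instead were other filters (none, or 20000 probe sets), median centring, renewed quantile normalization, an intensity trend, weighted arrays, a replicate block, each array left out, a stricter adjusted p (0.05), no fold minimum, probe sets averaged by gene, and dropping the suffixes _x_at and _s_at. A call from any probe set was added after seeing the data.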

Additional observations from a re-analysis of the deposited data

How the results depend on the processing

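Under 17 alternative settings between 10 and 15 members were called towards the vestibule and 0 towards the cochlea. The count of 10 came after a second quantile normalization, where 13.6% of all genes were called towards the vestibule, and without vestibule replicate 3. The median of the members ran between 0.21 and 0.34, and without 1 array between 0.25 and 0.34, against 0.27 with all arrays. No called member changed its direction, and 7 of the 13 (Wdr19, Ift74, Ift80, Dync2h1, Dync2li1, Bbs2 and Tulp3) kept their call under all 17 settings. Ift81 lost it under 10, Wdr35, Ift172 and Cluap1 under 2 each, and Kifap3 and Bbs5 under 1 each. After the second normalization Wdr35 stood at 0.37 and Cluap1 at 0.36, both under the minimum fold. With the mean of their probe sets Wdr35 stood at 0.32 and Kifap3 at 0.33, under it too. Deviations of same-numbered arrays of the tissues correlated at 0.217, 0.153 and -0.000547, and those of different-numbered arrays at -0.224 to 0.029. The labels do not say whether equal replicate numbers pair the tissues. With the replicate block 11 members were called, and Bbs5 (limma adjusted p = 0.145) and Ift81 (limma adjusted p = 0.115) were lost. Leaving out 1 array gave 10 to 14 called members. Over all probe sets it gave 2338 to 3912 called towards the vestibule and 1430 to 2783 towards the cochlea, against 3563 and 2184 with all arrays, and the lowest counts, 2338 and 1430, came without vestibule replicate 1.

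Values of uncalled members near 0 turned sign in 13 cases. The second normalization gave -0.0778 for Ift52 and -0.0556 for Kif3a, array weights gave 0.0164 for Kif17 and 0.0511 for Bbs12, and the mean of its probe sets gave 0.20 for Kif17. Without 1 array Ift140 ran between -0.117 and 0.0333, Ift46 between -0.0333 and 0.217, Ift52 between -0.0167 and 0.0833, Kif3a between -0.05 and 0.10, Kif17 between -0.0833 and 0.0667, Bbs10 between -0.0667 and 0.383 and Bbs12 between -0.333 and 0.0167. The cause of these changes was not tested. Among members without a call, Traf3ip1 and Bbs4 gained one under 3 settings each, Ift122 under 2, and Bbs1 and Bbs7 under 1 each.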
